A study of Mus musculus with 24 samples.

Results

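The plasminogen system of the midgestation mouse liver was examined through 8 genes: the urokinase receptor gene Plaur, the plasminogen activator genes Plau and Plat, the plasminogen gene Plg, the plasminogen receptor gene Plgrkt, and the inhibitor genes Serpine2, Serpinf2 and Serpinb2. They were taken by name as members of the pathway, and each matched 1 of the 25361 genes in the expression table. All 8 reached at least 1 TPM in at least 3 libraries, the minimum for testing, in both cell fractions. TPM scales transcript abundance to a fixed total per library and corrects for transcript length, so that levels of different genes can be set side by side.

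Bulk RNA-Seq was performed on 24 libraries from embryonic day (E) 12.5 livers, 12 from CD146+ cells taken as liver sinusoidal endothelial cells (LSECs) and 12 from the remaining non-EC liver cells, with 3 libraries per genotype in each fraction. Control embryos lacked Cre and carried at least 1 floxed allele of both Brg1 and Chd4, which encode ATPases of chromatin-remodeling complexes. All mutants were VE-cadherin-Cre+, and they were Chd4 fl/fl with Brg1 fl/+ (Chd4-ECko), Brg1 fl/fl with Chd4 fl/+ (Brg1-ECko) or fl/fl at both genes (Brg1/Chd4-ECdko), so that each single mutant also carried 1 floxed allele of the other gene. The questions were which fraction holds the transcripts of each plasminogen gene, which of them differ between mutants and controls, and whether loss of both remodelers gives levels unlike those of either single mutant. The VE-cadherin promoter drives Cre in endothelial cells and also in some blood cells, the mice were of a mixed background, and livers were dissociated in the presence of transcription inhibitors. Each in vivo data point is 1 embryo per the study's statistics section, and the sample titles name no batch or litter.

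Plasminogen is a zymogen made by liver parenchymal cells and released into blood. Tissue-type activator, encoded by Plat, and urokinase, encoded by Plau, cut it to plasmin, a protease that digests fibrin and extracellular matrix. Plaur encodes the receptor that holds urokinase at the cell surface, and serpins restrain the system at the level of the activators or of plasmin itself.

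The deposited values sum to the same total in every library, so the read depth behind them is unknown. LSEC libraries held 12746 to 13219 genes at 1 TPM or more and 13.9 to 31.5% of their TPM in mitochondrial genes, against 11450 to 11973 genes and 2.33 to 7.69% in non-EC libraries. Chd4 stood at 168 to 252 TPM in Chd4-ECko LSECs and 246 to 285 TPM in control LSECs, and Smarca4, which encodes BRG1, at 111 to 157 TPM in Brg1-ECko cells and 134 to 161 TPM in control LSECs. In Brg1/Chd4-ECdko LSECs Chd4 stood at 242 to 256 TPM and Smarca4 at 117 to 151 TPM. These gene-level values sum over exons inside and outside any floxed stretch and do not check the genotype labels. Summed endothelial markers reached 857 to 1790 TPM in LSEC and 25.8 to 59.7 TPM in non-EC libraries. The CD146+ fraction also held stellate and mesenchymal markers (1107 to 1942 TPM, against 24.6 to 107 TPM in non-EC libraries), mesothelial markers (34.7 to 79.5 TPM, against 0.525 to 2.94 TPM), myeloid markers (526 to 1115 TPM, against 238 to 475 TPM) and hepatoblast markers (3065 to 25777 TPM, against 15847 to 34007 TPM). The first Brg1-ECko LSEC library stood apart, with 25777 TPM of hepatoblast markers against 3065 to 7312 TPM in the other 11 LSEC libraries. In bulk samples, fewer cells of a type and less RNA per cell cannot be told apart.

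In control livers, the activators and Serpine2 were most abundant in LSECs, whereas plasminogen and the other serpins were most abundant in non-EC cells. In control LSECs, Plg (82.5 ± 26.2 TPM, s.d., n = 3) and Serpinf2 (75.1 ± 26.9 TPM) had the highest means, followed by Plat (55.2 TPM, range 45.8 to 65.7 TPM), Plau (33.5 ± 2.09 TPM), Serpine2 (28.3 ± 7.87 TPM), Plgrkt (15.4 ± 3.15 TPM), Plaur (7.13 ± 1.30 TPM) and Serpinb2 (1.05 ± 0.399 TPM). The ranges of Plg, Serpinf2 and Plat overlapped, as did those of Plau and Serpine2, and every other neighbouring pair in this order was separate in all 3 libraries. In control non-EC cells the order was Plg (354 ± 28.9 TPM), Serpinf2 (294 ± 14.4 TPM), Plgrkt (20.9 ± 0.0893 TPM), Serpine2 (8.24 ± 0.253 TPM), Serpinb2 (6.35 ± 1.91 TPM), Plat (4.34 ± 0.501 TPM), Plaur (3.84 ± 1.34 TPM) and Plau (2.34 ± 0.853 TPM). Here Plg stood above Serpinf2 and Serpinf2 above Plgrkt in all libraries, while Serpine2 and Serpinb2, Serpinb2 and Plat, Plat and Plaur, and Plaur and Plau each overlapped.

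**Figure D1:**
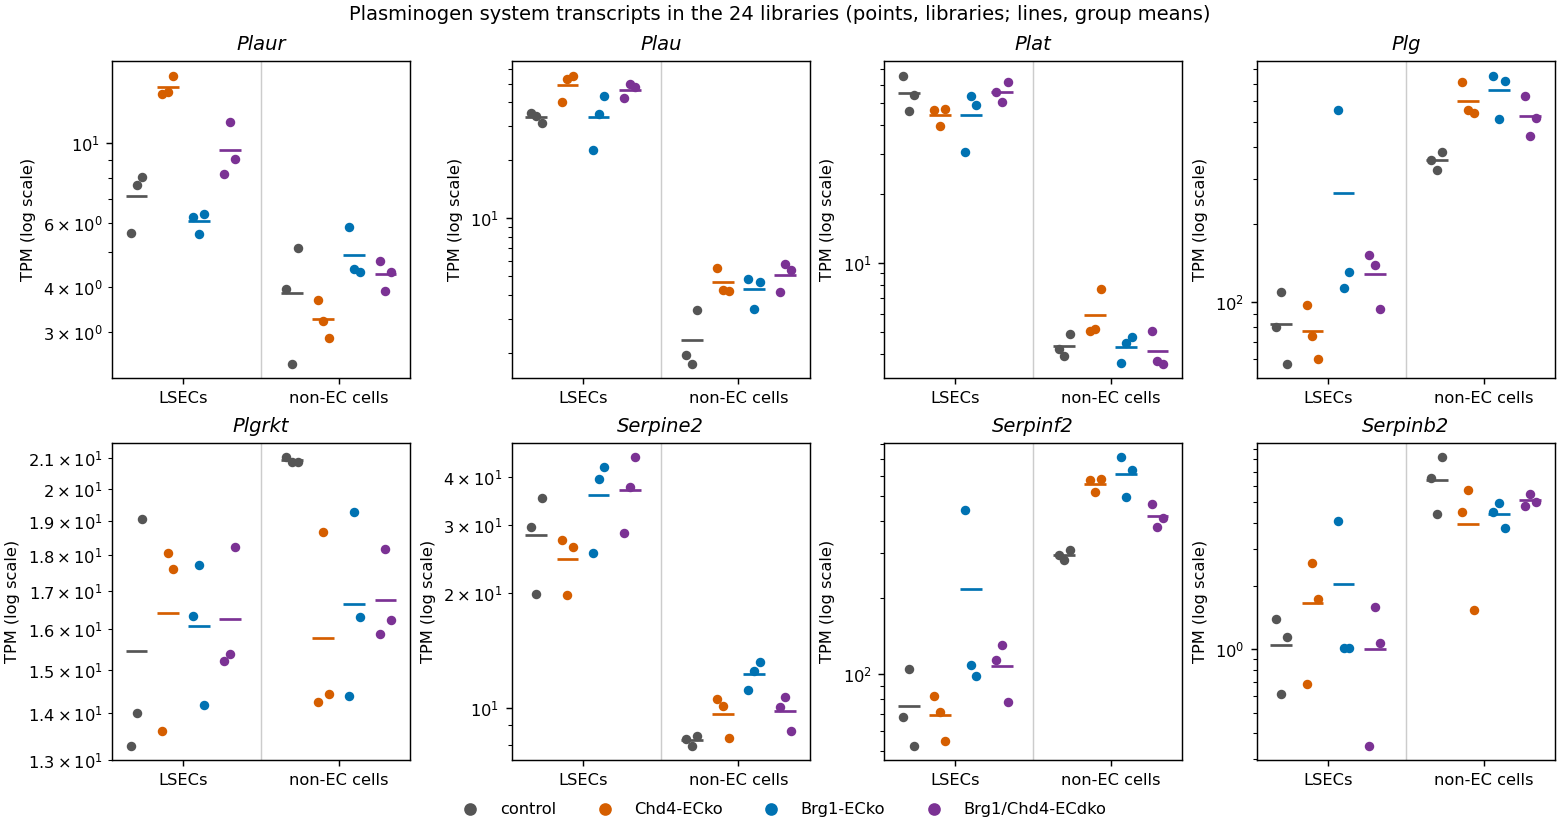
TPM of the 8 genes in all 24 libraries, on a log axis, with 1 point per library and a bar at the mean of each group of 3. Plau, Plat and Serpine2 lie higher in LSECs and Plg, Serpinf2 and Serpinb2 higher in non-EC cells by their means in all 4 genotypes.

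The fractions were compared with limma on log2(TPM + 1), which understates fold changes of low genes. A gene was counted as a differentially expressed gene (DEG) where its log2 fold change exceeded 1 in size with an adjusted p below 0.05 (Benjamini-Hochberg over all genes tested). Of the 8 genes, 6 were DEGs between control LSECs and control non-EC cells, against 32.7% of all genes, with 3 higher in LSECs (19.4% of all genes) and 3 lower (13.3%). Plat was higher in LSECs by 3.39 on the log2 scale (SE 0.19, limma adjusted p = 3.32e-12), Plau by 3.40 (SE 0.21, limma adjusted p = 1.06e-11), and Serpine2, a serpin that inhibits thrombin and plasminogen activators, by 1.63 (SE 0.20, limma adjusted p = 5.82e-07). On the same scale Plg differed by -2.13 (SE 0.39, limma adjusted p = 6.31e-05), Serpinf2, which encodes α2-antiplasmin, by -2.01 (SE 0.37, limma adjusted p = 6.62e-05), and Serpinb2, which encodes an inhibitor of urokinase, by -1.83 (SE 0.37, limma adjusted p = 0.000182), all lower in LSECs. Plaur (0.78, SE 0.18, limma adjusted p = 0.000786) and Plgrkt (-0.43, SE 0.15, limma adjusted p = 0.0162) differed by less than the DEG threshold, so that all 8 genes had an adjusted p below 0.05, as did 67.1% of all genes. After removal of mitochondrial genes and rescaling, which moved the median of all genes by 0.26 towards LSECs, Plaur was higher in LSECs by 1.03 and the Plgrkt difference was -0.17 (limma adjusted p = 0.282). The Plgrkt call was also lost without control LSEC replicate 1 or 2 (limma adjusted p = 0.0855 and 0.0647), and the Plaur difference was 0.34 with quantile normalization (limma adjusted p = 0.0761). Stellate, mesenchymal and mesothelial markers moved with Plau, Plat and Serpine2, with 8 of 8 and 2 of 2 tested genes higher in control LSEC than in control non-EC libraries, and their part in these levels was not tested. Hepatoblast markers moved with Plg and Serpinf2, with 7 of 8 called lower in control LSEC libraries (median -1.80), as did 6 of 6 megakaryocyte, 6 of 6 erythroid and 4 of 6 granulocyte markers (medians -1.96, -2.70 and -3.23), and their part in the levels of Plg, Serpinf2 and Serpinb2 was likewise not tested. Over the 4 genotypes together, the same 6 genes were DEGs, where 29% of all genes were called.

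Plaur, the receptor of urokinase, lies on mouse chromosome 7 (GRCm39, chr7:24161875-24175394, + strand, ENSMUSG00000046223, 7 exons), and no other annotated gene overlaps it. Its proximal promoter is shown because the level of this gene is the only one of the 8 that passed the test between LSEC genotypes. The stretch is chr7:24161658-24161874 on the + strand, taken from RefSeq (table build GRCm38.p6) and matched without a mismatch to GRCm39, and it stops 33 bases short of the RefSeq start so that no annotated exon is included. Capitals mark a match to the AP-1 motif (TGANTCA) at 69 to 63 bases before the RefSeq start and a match to the C/EBP motif (TTGCNNAA), on the opposite strand, at 59 to 52 bases before it.
Plaur promoter: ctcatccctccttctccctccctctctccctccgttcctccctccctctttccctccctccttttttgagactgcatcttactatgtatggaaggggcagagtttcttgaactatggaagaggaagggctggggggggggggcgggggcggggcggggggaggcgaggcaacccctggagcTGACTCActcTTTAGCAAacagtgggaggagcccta
Both strands were searched. Of 32851 promoter windows of 250 bases, 6.75% held the AP-1 motif and 9.56% the C/EBP motif. The Plaur window also held 3 GC boxes (GGGCGG, in 32.7% of windows), of which the second and the third share 1 base, and an NF-kB motif (in 45.8% of windows). These letter matches describe the window only. Windows were also listed for Plgrkt, Serpine2, Serpinf2 and Serpinb2, and among these the AP-1 and C/EBP letters were both found in Serpinb2 alone.

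Chd4-ECko LSECs held more Plaur transcript than control LSECs. Plaur measured 5.65, 7.67 and 8.08 TPM in the control LSEC libraries and 13.7, 13.9 and 15.4 TPM in the Chd4-ECko libraries. It measured 6.27, 5.62 and 6.38 TPM in Brg1-ECko LSECs and 8.23, 11.5 and 9.06 TPM in Brg1/Chd4-ECdko LSECs. All 3 Chd4-ECko libraries lay above every other LSEC library, the double mutant libraries lay above those of control and of Brg1-ECko LSECs, and the Brg1-ECko and control ranges overlapped.

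The Chd4-ECko mean of 14.3 ± 0.949 TPM was 2.01 times the control mean of 7.13 ± 1.30 TPM. On the log2(TPM + 1) scale Plaur rose by 0.92 (SE 0.17, 95% confidence interval 0.57 to 1.28, limma adjusted p = 0.0211, higher in 3 of 3 libraries). It was the only one of the 8 genes with an adjusted p below 0.05 in this comparison, where 0.707% of all genes had one. Its fold change was below the DEG threshold, which 0.521% of all genes passed and 0 of the 8 did in limma, and with a pseudocount of 0.1 TPM it passed that threshold at 1.01 (limma adjusted p = 0.0225). Plaur and Plau had an unadjusted p under 0.05 here, as did 6.49% of all genes.

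The call rests on few libraries. With 1 library left out at a time, the Plaur difference stayed between 0.79 and 1.01, and its limma adjusted p ran from 0.0299 to 0.146, under 0.05 in 2 of 6 cases. It was 0.116 without control replicate 1, 0.0670 without control replicate 2, 0.0892 without Chd4-ECko replicate 2 and 0.146 without Chd4-ECko replicate 3. Myeloid markers moved with Plaur. Their sum was 749 to 1115 TPM in Chd4-ECko and 624 to 708 TPM in control LSECs, all 11 listed markers had a positive difference, and 3 (Cx3cr1, Fcer1g and Spi1) were DEGs. With the myeloid level as a covariate the Plaur difference was 1.03 (SE 0.29, limma adjusted p = 0.507). All 6 erythroid markers also had positive differences (median 0.66, with none called), and their part was not tested. None of the 8 endothelial markers was called in this comparison.

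Brg1-ECko LSECs held Plaur at 6.09 ± 0.414 TPM, a log2 difference of -0.19 from controls (limma adjusted p = 0.743). In Brg1/Chd4-ECdko LSECs it was 9.59 ± 1.69 TPM, and the difference from controls was 0.38 (95% confidence interval 0.023 to 0.74, limma adjusted p = 0.382). Plaur thus lay between the control and Chd4-ECko levels in the double mutant. The step from Chd4-ECko to Brg1/Chd4-ECdko was -0.54 (95% confidence interval -0.90 to -0.18, limma adjusted p = 0.415), and that from Brg1-ECko to Brg1/Chd4-ECdko was 0.57 (95% confidence interval 0.21 to 0.93, limma adjusted p = 0.366). In both of these comparisons the libraries did not overlap, but the adjusted p missed the threshold. Limma called 0 of the 8 genes against Chd4-ECko (0.0372% of all genes) and 0 against Brg1-ECko (0.0967%), while 2 had an unadjusted p under 0.05 in the first (Plaur and Serpine2, 10.4% of all genes) and 2 in the second (Plaur and Plau, 6.1%). Against Chd4-ECko, all 11 myeloid markers (median -0.32) and all 6 erythroid markers (median -0.60) also had negative differences and all 8 hepatoblast markers positive ones (median 0.44), with none called. The Plaur step was -0.58 with the myeloid and -0.55 with the hepatoblast covariate (limma adjusted p = 0.564 and 0.178), and the part of erythroid content was not tested. Against Brg1-ECko, all 8 endothelial markers had positive differences (median 0.27) and all 8 hepatoblast markers negative ones (median -0.68), with none called.

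The sharpest contrast was between the single mutants. Plaur was higher in Chd4-ECko than in Brg1-ECko LSECs by 1.11 (SE 0.17, 95% confidence interval 0.75 to 1.47, limma adjusted p = 0.00864), which made it the only DEG among the 8 genes, where 0.305% of all genes were called. With 1 library left out at a time it ran from 1.06 to 1.14. Its limma adjusted p was 0.0778 without Chd4-ECko replicate 3 and 0.0593 with the myeloid covariate. All 8 endothelial markers (median 0.38, 1 by adjusted p), all 11 myeloid markers (median 0.47) and all 6 erythroid markers (median 0.66) also had positive differences and all 8 hepatoblast markers negative ones (median -1.25). Summed endothelial markers were 1519.8 to 1712 TPM in Chd4-ECko and 857 to 1368 TPM in Brg1-ECko LSECs. With the hepatoblast covariate the Plaur difference was 1.13 (limma adjusted p = 0.0320), and the part of endothelial and erythroid content was not tested. The departure of the double mutant from the sum of the single-mutant differences was -0.36 (limma adjusted p = 0.995). These comparisons share control and mutant libraries and are not independent of one another.

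**Figure D2:**
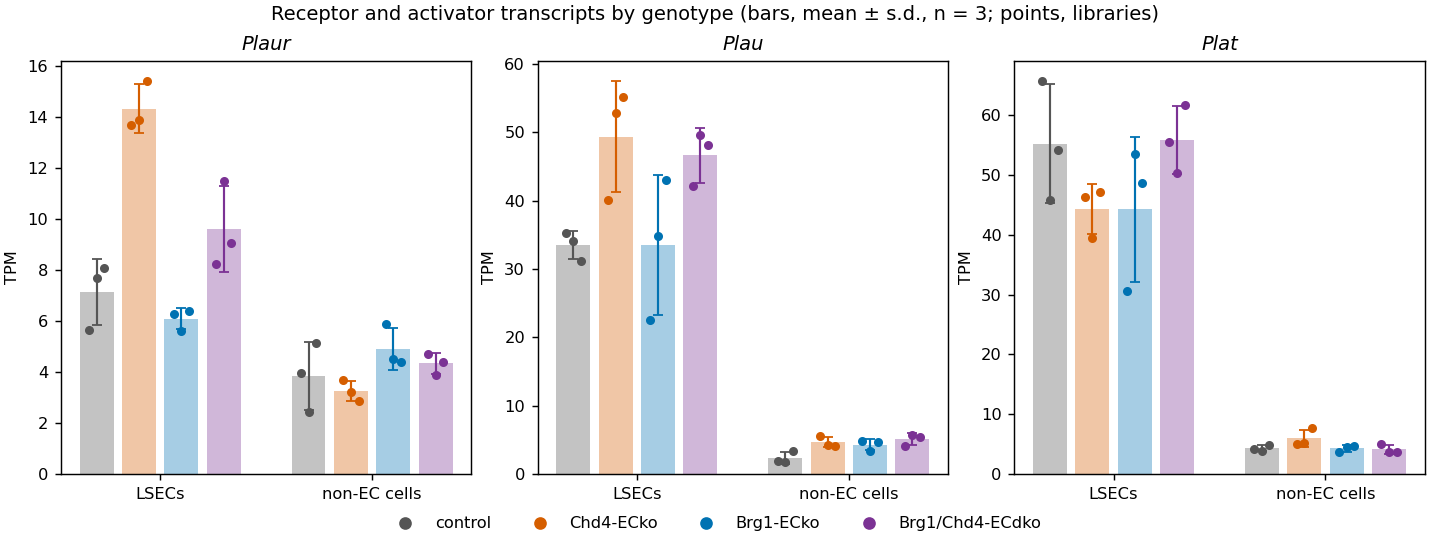
TPM of Plaur, Plau and Plat in each library by genotype, LSECs and non-EC cells, with 1 point per library and the mean ± s.d. of 3. Plaur in the Chd4-ECko LSEC libraries sits between 13.7 and 15.4 TPM, above all other LSEC libraries, while in non-EC cells each mutant range overlaps the control range.

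In non-EC cells Plaur did not pass the test against controls in any mutant. Plaur measured 3.95, 2.44 and 5.12 TPM in control and 3.67, 3.21 and 2.88 TPM in Chd4-ECko non-EC cells. It measured 5.87, 4.50 and 4.39 TPM in Brg1-ECko cells and 4.71, 3.89 and 4.40 TPM in Brg1/Chd4-ECdko non-EC cells. The control range took in all 3 Chd4-ECko libraries and all 3 double mutant libraries, and the Chd4-ECko libraries lay below those of both other mutants. The log2 differences from controls were -0.15 in Chd4-ECko cells, 0.32 in Brg1-ECko cells and 0.18 in the double mutant (limma adjusted p = 0.625, 0.311 and 0.878).

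In a model of all 24 libraries, the Chd4-ECko difference in Plaur was larger in LSECs than in non-EC cells by 1.07 (SE 0.26, 95% confidence interval 0.54 to 1.61, limma adjusted p = 0.0460), and 0.69% of all genes were called in this test. The call was lost when LSEC and non-EC libraries of the same genotype and number were treated as pairs (limma adjusted p = 0.0719), when only the compared groups were fitted (limma adjusted p = 0.109), and in 10 of 12 fits without 1 library (highest limma adjusted p = 0.134, without Chd4-ECko non-EC replicate 3). It held without control non-EC replicate 2 (1.30, limma adjusted p = 0.00829) and without Chd4-ECko non-EC replicate 1 (1.14, limma adjusted p = 0.00886). The corresponding values were -0.51 for Brg1-ECko (limma adjusted p = 0.302) and 0.20 for Brg1/Chd4-ECdko (limma adjusted p = 0.844), where 0.639% and 0.0581% of all genes were called. In the Chd4-ECko test between fractions all 11 myeloid markers (median 0.82) and all 6 erythroid markers (median 0.69) were also positive and all 8 hepatoblast (median -0.84) and 8 stellate and mesenchymal markers (median -0.73) negative, with none called, and their part was not tested. Of 6 granulocyte markers 5 were positive (median 1.09), and 2 of 2 mesothelial markers were negative (median -0.83). None of these was called, and their part was not tested either. Mean Plaur in LSECs was 4.40 times its non-EC mean in Chd4-ECko livers, against 1.86 times in control, 1.24 times in Brg1-ECko and 2.21 times in Brg1/Chd4-ECdko livers.

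The genes next to Plaur on chromosome 7 were also read in LSECs. Mean TPM of Smg9 was 13.5 in control and 16.2 in Chd4-ECko, that of Cadm4 10.8 and 9.65, and that of Zfp428 39.1 and 35.8. Kcnn4 averaged 6.13 TPM in control LSECs and 12.1 TPM in both Chd4-ECko and Brg1-ECko LSECs, with an s.d. of 9.40 in the latter. Double mutant LSEC means were 5.01 ± 1.86 TPM for Kcnn4, 15.5 TPM for Smg9, 11.9 TPM for Cadm4 and 38.0 TPM for Zfp428. Irgc was listed at 0.

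Urokinase, the ligand of the Plaur product and an activator of plasminogen, is encoded by Plau (chr14:20886722-20893453, + strand, ENSMUSG00000021822). In LSECs, Plau measured 35.3, 34.1 and 31.2 TPM in control and 40.0, 52.9 and 55.2 TPM in Chd4-ECko libraries. It measured 22.6, 34.8 and 43.0 TPM in Brg1-ECko cells and 42.1, 49.6 and 48.1 TPM in Brg1/Chd4-ECdko libraries. All Chd4-ECko and Brg1/Chd4-ECdko libraries lay above the controls, and the Brg1-ECko libraries spread to both sides of the controls. The log2 difference from controls was 0.53 in Chd4-ECko (95% confidence interval 0.11 to 0.95, limma adjusted p = 0.441), -0.047 in Brg1-ECko (limma adjusted p = 0.956) and 0.46 in Brg1/Chd4-ECdko (95% confidence interval 0.041 to 0.88, limma adjusted p = 0.369), and none passed the test. The lowest Brg1-ECko value came from the library with the highest hepatoblast markers, and without it the Brg1-ECko difference was 0.20.

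Non-EC cells held far less Plau, at 1.96, 1.75 and 3.32 TPM in control and 5.53, 4.25 and 4.18 TPM in Chd4-ECko libraries. Brg1-ECko libraries measured 4.85, 3.37 and 4.65 TPM and Brg1/Chd4-ECdko libraries 4.12, 5.78 and 5.36 TPM. Every mutant library lay above every control library, and the mutant ranges overlapped one another. Plau rose by 0.78 in Chd4-ECko non-EC cells (SE 0.20, limma adjusted p = 0.0391), while its difference was 0.68 in Brg1-ECko (limma adjusted p = 0.0522) and 0.88 in Brg1/Chd4-ECdko (limma adjusted p = 0.0725). The Chd4-ECko call was lost without control replicate 1, control replicate 2, Chd4-ECko replicate 2 or Chd4-ECko replicate 3 (limma adjusted p = 0.117, 0.0917, 0.0840 and 0.0811), and with hepatoblast markers as a covariate the difference was 0.43 (limma adjusted p = 0.432). All 8 stellate and mesenchymal markers had positive differences in each mutant (medians 0.49, 0.47 and 0.36, with none called), and their part was not tested.

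Tissue-type plasminogen activator, encoded by Plat (chr8:23247709-23272871, + strand, ENSMUSG00000031538), was the more abundant activator transcript in control LSECs. Plat measured 65.7, 45.8 and 54.1 TPM in control and 46.4, 39.5 and 47.1 TPM in Chd4-ECko LSECs. It measured 30.6, 53.5 and 48.7 TPM in Brg1-ECko cells and 55.5, 50.3 and 61.7 TPM in Brg1/Chd4-ECdko LSECs. All mutant ranges overlapped the control range, and the Chd4-ECko difference was -0.30 (limma adjusted p = 1.00). Plat and Plau levels came closer in Chd4-ECko LSECs, where Plau per Plat was 0.864, 1.34 and 1.17, against 0.537, 0.746 and 0.576 in controls, 0.740, 0.650 and 0.883 in Brg1-ECko LSECs, and 0.759, 0.987 and 0.780 in Brg1/Chd4-ECdko LSECs. The 3 Chd4-ECko ratios lay above the 3 control ratios, a log2 difference of 0.85 that did not pass an exact two-sided permutation test (p = 0.1, the smallest that 3 against 3 libraries allow, and 0.286 after adjustment over 60 ratio comparisons). The Brg1/Chd4-ECdko LSEC ratios also lay above the controls, by 0.45 (exact permutation p = 0.1). So did the Brg1-ECko and Brg1/Chd4-ECdko ratios in non-EC cells, by 0.93 and 1.25 (exact permutation p = 0.1 each), while the Chd4-ECko ratios there overlapped the controls. In non-EC cells Plat stayed between 3.62 and 7.66 TPM. The Chd4-ECko non-EC libraries, at 5.06, 5.13 and 7.66 TPM, lay above every other non-EC library. Their difference from controls was 0.36 and did not pass the test (limma adjusted p = 0.168).

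**Figure D3:**
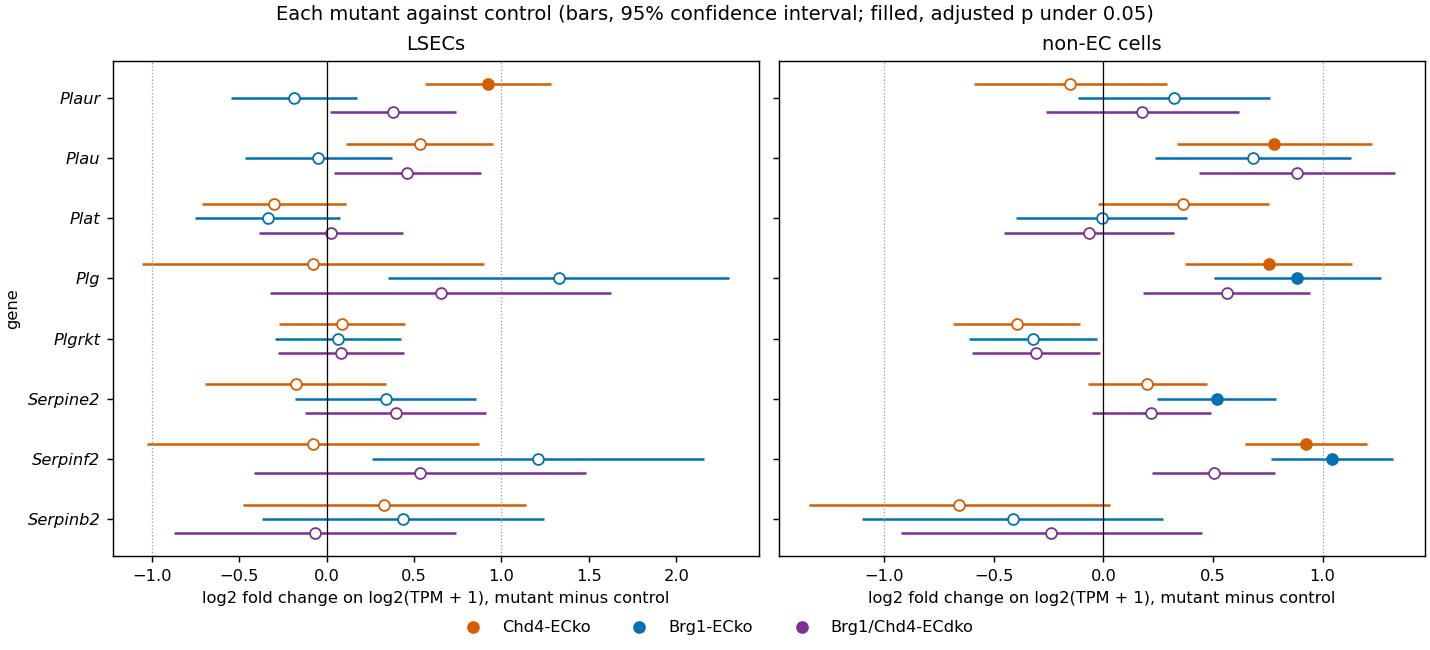
Difference from control on the log2(TPM + 1) scale for the 8 genes in each mutant genotype, LSECs and non-EC cells, with 95% confidence intervals from limma. Plaur in Chd4-ECko LSECs is at 0.92 (0.57 to 1.28), and in non-EC cells Plg and Serpinf2 lie above 0 in all 3 mutants.

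Plasminogen transcripts, from Plg (chr17:12597491-12638272, + strand, ENSMUSG00000059481), differed between genotypes in the non-EC cells. Plg measured 356, 324 and 382 TPM in control and 713, 553 and 539 TPM in Chd4-ECko non-EC cells. It measured 755, 510.1 and 722 TPM in Brg1-ECko cells and 627, 440.1 and 516 TPM in Brg1/Chd4-ECdko non-EC cells. All 9 mutant libraries lay above the 3 control libraries. Plg rose by 0.76 in Chd4-ECko (SE 0.17, limma adjusted p = 0.0263) and by 0.88 in Brg1-ECko (SE 0.17, limma adjusted p = 0.00870), and the Brg1/Chd4-ECdko difference was 0.56 (limma adjusted p = 0.173). The Chd4-ECko call was lost without control replicate 1, 2 or 3 or Chd4-ECko replicate 2 (limma adjusted p = 0.0727, 0.0773, 0.0541 and 0.0579), and the Brg1-ECko call held in all 6 fits without 1 library.

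Serpinf2 (chr11:75322543-75330987, - strand, ENSMUSG00000038224), whose product is the main circulating inhibitor of plasmin, moved with Plg. It measured 295, 279.6 and 308 TPM in control and 576, 519 and 584 TPM in Chd4-ECko non-EC cells. It measured 711, 495 and 633 TPM in Brg1-ECko cells and 465, 379 and 411 TPM in Brg1/Chd4-ECdko non-EC cells. Every mutant library was again above every control library, and the double mutant range lay below both single mutant ranges. Serpinf2 rose by 0.93 in Chd4-ECko (SE 0.13, limma adjusted p = 0.00473) and by 1.04 in Brg1-ECko (SE 0.13, limma adjusted p = 0.00133), and the Brg1/Chd4-ECdko difference was 0.50 (limma adjusted p = 0.0982). Both calls by adjusted p held in every fit without 1 library, while the Brg1-ECko difference fell below the DEG threshold without Brg1-ECko replicate 1 (0.93).

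By adjusted p alone, 3 of the 8 genes rose in Chd4-ECko non-EC cells (Plau, Plg and Serpinf2), against 9.48% of all genes changed in either direction, and 3 rose in Brg1-ECko non-EC cells (Plg, Serpine2 and Serpinf2), against 11.7%. DEGs by limma numbered 0 of 8 in Chd4-ECko (0.884% of all genes), where 4 had an unadjusted p under 0.05 (Plau, Plg, Plgrkt and Serpinf2, 33.9% of all genes), and 1 of 8 in Brg1-ECko (Serpinf2, 1.37% of all genes). In Brg1/Chd4-ECdko non-EC cells limma gave 0 DEGs among the 8 (0.115% of all genes) and 0 by adjusted p alone (0.581%), although 4 had an unadjusted p under 0.05 (Plau, Plg, Plgrkt and Serpinf2), as did 11.7% of all genes. Hepatoblast markers moved with these genes. Their sum was 15847 to 17706 TPM in control, 23594 to 32621 TPM in Chd4-ECko, 23075 to 34007 TPM in Brg1-ECko and, for the double mutant, 20154 to 26927 TPM in non-EC libraries, and 6, 7 and 1 of 8 listed markers had an adjusted p below 0.05 in the 3 mutants. All 6 granulocyte markers had negative differences in each mutant (medians -0.75, -0.26 and -0.45, with none called), as did 6 of 6 erythroid markers in Brg1-ECko (median -0.80, 1 DEG) and Brg1/Chd4-ECdko (median -0.47), and their part was not tested. With the hepatoblast level as a covariate, the Plg differences were -0.16, -0.18 and 0.0062 (limma adjusted p = 0.334, 0.346 and 0.977) and the Serpinf2 differences 0.39, 0.41 and 0.17 (limma adjusted p = 0.109, 0.147 and 0.500), for Chd4, Brg1 and double mutants in turn.

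In LSEC libraries, Plg and Serpinf2 tracked hepatoblast markers library by library. Plg measured 80.4, 109.7 and 57.5 TPM in control and 97.8, 73.6 and 60.0 TPM in Chd4-ECko LSECs. It measured 553, 113 and 130.5 TPM in Brg1-ECko cells and 152, 139 and 94.3 TPM in Brg1/Chd4-ECdko LSECs. The first Brg1-ECko library was 3.64 times the next highest LSEC library for Plg, 3.38 times for Serpinf2 (442 TPM) and 3.53 times for the hepatoblast sum. The Brg1-ECko difference was 1.33 for Plg (SE 0.45, limma adjusted p = 0.415) and 1.21 for Serpinf2 (SE 0.44, limma adjusted p = 0.426), and without that library it was 0.60 and 0.51. Across the 12 LSEC libraries Pearson's r between Plg and Serpinf2 was 0.99, a description of libraries that share this hepatoblast content.

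**Figure D4:**
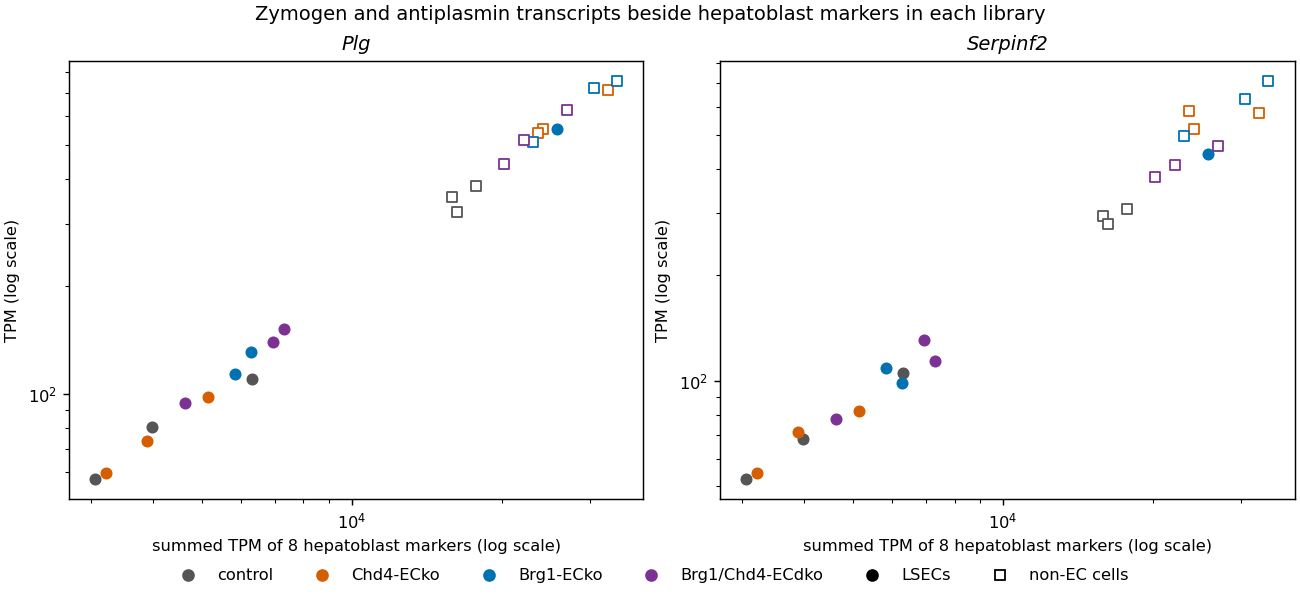
TPM of Plg and Serpinf2 against the summed TPM of the hepatoblast markers in each library, on log axes, with LSECs and non-EC cells marked apart. The first Brg1-ECko LSEC library, at 25777 TPM of hepatoblast markers, lies among the non-EC libraries.

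Plgrkt (chr19:29325999-29344824, - strand, ENSMUSG00000016495) encodes a membrane receptor that binds plasminogen. It measured 21.0, 20.9 and 20.9 TPM in control non-EC cells, 14.2, 18.7 and 14.4 TPM in Chd4-ECko, 14.4, 19.3 and 16.3 TPM in Brg1-ECko cells, and 15.9, 18.2 and 16.2 TPM in Brg1/Chd4-ECdko non-EC cells. All mutant libraries lay below the controls. The differences of -0.40, -0.32 and -0.31 did not pass the test (limma adjusted p = 0.0722, 0.139 and 0.388), and with the hepatoblast covariate they were 0.029 in Chd4-ECko and 0.17 in Brg1-ECko. In LSECs Plgrkt ranged from 13.3 to 19.1 TPM, and its control libraries took in both of these extremes.

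Serpine2 (chr1:79763323-79839144, - strand, ENSMUSG00000026249) measured 29.6, 19.8 and 35.4 TPM in control LSECs, and 27.4, 19.8 and 26.3 TPM in Chd4-ECko LSECs. Brg1-ECko LSECs measured 25.4, 39.7 and 42.7 TPM and Brg1/Chd4-ECdko LSECs 28.6, 37.7 and 45.2 TPM. All mutant ranges overlapped the control range, and the double mutant lay above Chd4-ECko in all libraries. In non-EC cells Serpine2 measured 8.30, 7.96 and 8.45 TPM in control and 11.1, 12.5 and 13.1 TPM in Brg1-ECko libraries, a rise of 0.52 (SE 0.12, limma adjusted p = 0.0215). That call held without Brg1-ECko replicate 1 (limma adjusted p = 0.0444) and was lost without any other library of either group (limma adjusted p = 0.0521 to 0.0880), and with the hepatoblast covariate the difference was 0.48 (limma adjusted p = 0.239). All 8 stellate and mesenchymal markers had positive differences there (median 0.47, with none called), and their part was not tested.

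Serpinb2 (chr1:107428593-107463208, + strand, ENSMUSG00000062345) was the scarcest of the 8 genes in LSECs, between 0.349 and 4.08 TPM, with the highest value in the first Brg1-ECko library. It measured 6.50, 4.37 and 8.19 TPM in control and 4.51, 5.73 and 1.54 TPM in Chd4-ECko non-EC cells, which overlapped. The Chd4-ECko difference was -0.66 (limma adjusted p = 0.161).

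In LSECs, limma called 0 of the 8 genes in Brg1-ECko (0.0149% of all genes were DEGs) and 0 in Brg1/Chd4-ECdko (0.565%). At an unadjusted p under 0.05, 2 genes stood in Brg1-ECko (Plg and Serpinf2) and 2 in Brg1/Chd4-ECdko (Plau and Plaur), where 9.68% and 12.1% of all genes did. The median difference of the 8 genes was 0.0068 in Chd4-ECko LSECs and 0.39 in Brg1/Chd4-ECdko LSECs, beside 0.0073 and 0.16 over all genes. In Brg1/Chd4-ECdko LSECs all 8 hepatoblast markers (median 0.51) and 10 of 11 myeloid markers (median 0.72) also had positive differences from controls, with none called. Their part in the median difference of the 8 genes was not tested. In non-EC cells that median difference was 0.28 in Chd4-ECko and 0.42 in Brg1-ECko, beside 0.0054 and 0.020 over all genes.

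Of 43 other listed genes of plasmin regulation, fibrin, basement membrane and urokinase receptor partners, 40 could be tested in LSECs and 38 in non-EC cells. In Chd4-ECko LSECs, 1 of 40 was a DEG, beside 0.521% of all genes: F13a1, which encodes the factor XIII chain that cross-links fibrin, measured 8.66 to 9.93 TPM in controls and 17.4 to 71.5 TPM in Chd4-ECko, a rise of 1.94 (SE 0.37, limma adjusted p = 0.0343). Its Chd4-ECko libraries lay above the controls, as did those of Brg1/Chd4-ECdko at 14.0 to 29.2 TPM. Myeloid markers were also higher in the Chd4-ECko LSEC libraries (11 of 11 with a positive difference, 3 DEGs), and their part in the F13a1 level was not tested. None of 7 basement membrane genes was called there, with a median difference of -0.17. In Brg1-ECko and Brg1/Chd4-ECdko LSECs 0 of 40 were DEGs by limma, beside 0.0149% and 0.565% of all genes, and 16 and 9 of 40 had an unadjusted p under 0.05, beside 9.68% and 12.1%. All 8 hepatoblast markers were also higher in Brg1-ECko LSECs (median 1.12), each with an unadjusted p under 0.05. Positive differences there were also held by 9 of 11 myeloid markers (median 0.62), and all 8 endothelial markers were negative (median -0.46). None of these markers was called, and their part in the count was not tested. In non-EC cells the DEGs were Serping1, the C1 inhibitor gene, in Chd4-ECko (1.08, limma adjusted p = 0.00635), and Serping1 (1.28, limma adjusted p = 0.00148), Vtn, the vitronectin gene (1.10, limma adjusted p = 0.00128), and Lamb2, a laminin chain gene (1.07, limma adjusted p = 0.00154), in Brg1-ECko, with 0 of 38 in Brg1/Chd4-ECdko, where 17 had an unadjusted p under 0.05. Of all genes 11.7% had an unadjusted p under 0.05 in Brg1/Chd4-ECdko non-EC cells. DEGs made up 0.884%, 1.37% and 0.115% of all genes in the 3 mutants. By adjusted p alone, 10, 14 and 3 of 38 were called in the 3 mutants, beside 9.48%, 11.7% and 0.581% of all genes. Hepatoblast markers moved with them in these libraries (6, 7 and 1 of 8 by adjusted p), and their part in the levels of Serping1, Vtn and Lamb2 was not tested. All 8 stellate and mesenchymal markers were positive in each mutant (medians 0.49, 0.47 and 0.36, with none called). All 6 granulocyte markers were negative (medians -0.75, -0.26 and -0.45, with none called), as were all 6 erythroid markers in Brg1-ECko (median -0.80, 1 DEG) and Brg1/Chd4-ECdko (median -0.47). Their part was likewise not tested.

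The genes whose LSEC levels followed those of Plaur most closely over the 12 LSEC libraries were Ccdc121rt3 (Pearson's r = 0.96), Tspan8 and Adam23 (both 0.93), Cyp4b1 (0.92) and Lrrc4 (0.90). Those most like Plau were Sema6b (0.94), Arhgap25 and Ier3 (both 0.93), Fos and Plcl2 (both 0.92). For Plg they were F2, which encodes prothrombin (0.996), and Afp, Itih2 and C3 (all 0.995). Between Plaur and Plau r was 0.69. For deviations from group means it was 0.096 between Plaur and Plau. On that measure r with Plaur was 0.83 for Ccdc121rt3, 0.57 for Tspan8, 0.17 for Adam23, -0.026 for Cyp4b1 and 0.70 for Lrrc4. It was 0.83 to 0.91 for the genes named with Plau and 0.992 to 0.997 for those named with Plg. These correlations describe libraries that share genotype, dissociation and cell makeup.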

How the data were processed

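Poly-A-selected RNA was sequenced by the authors as paired-end reads and mapped in CLC Genomics Workbench to GRCm39 (mm39, per the submitters' processing notes) after trimming of repeated guanines. The deposited table holds the authors' TPM per gene and library, without counts, so depth and counting error are unknown, and whether strand was used in counting is not given in the sources used here. This touches Plg and Plgrkt, which overlap Slc22a3 and Cd274 on the opposite strand, and Plau, Serpine2, Serpinf2 and Serpinb2, which overlap long noncoding RNA genes on the opposite strand. Serpinb2 also overlaps Serpinb10 on the same strand, where strand cannot separate the reads.

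Groups came from the labels. The 8 genes and all lists were chosen with earlier results of these data known. Genes that reached 1 TPM in 3 or more libraries were tested on log2(TPM + 1) with limma 3.58.1 (R 4.3.3, moderation with a trend), in models of 12 LSEC libraries (13444 genes), 12 non-EC libraries (12223 genes) and all 24 (13775 genes), with Benjamini-Hochberg adjustment over all genes. DEGs had an adjusted p below 0.05 and a log2 fold change above 1 in size, the study's own thresholds. On simulated LSEC data, 93% of genes changed by 1.5 and 100% of those changed by 2.5 on the log2 scale were recovered. Only genes above a minimum level were changed, by more than any genotype difference of the 8 genes in the main fits. Recovery of smaller changes or of low genes was therefore not gauged. Text names all 8 genes, list genes that were called, and the genes most correlated with a member. LSEC and non-EC libraries of the same genotype and number deviated together in 12 of 12 pairs (r from 0.124, mean 0.270), so they were paired as an alternative. No 2 libraries were identical. Replicates correlated at r = 0.981 to 0.996. Positions and exons came from GENCODE M39, and motifs from RefSeq promoter sequences, which covered 5 of the 8 genes. Alternatives were the pseudocount, the filter, normalization, moderation, blocks, covariates and omission of each library. Covariates for hepatoblast content in non-EC cells, mitochondrial removal and the fraction pairing for effects compared between fractions were added after seeing the data.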

Additional observations from a re-analysis of the deposited data

Results flagged for a closer look

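The Chd4-ECko difference in Plaur was 1.07 larger in LSECs than in non-EC cells on the log2(TPM + 1) scale (limma adjusted p = 0.0460), and a test of the difference between the fractions itself brought it up. Plaur was higher than control in 3 of 3 Chd4-ECko LSEC libraries, whereas the Chd4-ECko non-EC libraries lay within the control range. The limma adjusted p was above 0.05 with the fractions paired (0.0719), with a pseudocount of 0.1 TPM (0.0632) and without a filter on low values (0.0636). No group had the 4 libraries needed for a check of single outlying values.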

How the results depend on the processing

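Nothing in the labels ties replicate numbers across genotypes. Deviations of same-numbered libraries correlated above 0.1 in 13 of 18 LSEC and 10 of 18 non-EC pairings (mean r 0.171 and 0.127), and those of differently numbered libraries in 8 of 36 in each fraction (mean r -0.0852 and -0.0667), a hint of a shared replicate effect that did not reach every pair. With a replicate block no DEG call among the 8 genes changed, and the limma adjusted p of Plaur in Chd4-ECko LSECs was 0.0174. By adjusted p alone the block added Plgrkt in Chd4-ECko non-EC cells (0.0475) and Plg (0.0397) and Serpinf2 (0.0273) in Brg1/Chd4-ECdko non-EC cells. The number of the 8 genes called depended on the setting. At a pseudocount of 0.1 TPM it was 1 in Chd4-ECko LSECs, 1 in Chd4-ECko non-EC cells and 0 for the Chd4-ECko difference between fractions. That last count was also 0 without a filter, with only the compared groups fitted and with a block for the fraction pair. By adjusted p alone the counts were 1 in Chd4-ECko LSECs, 3 in Chd4-ECko non-EC cells and 3 in Brg1-ECko non-EC cells. It was 0 for Chd4-ECko against Brg1-ECko LSECs with the myeloid covariate and 0 for Brg1-ECko non-EC cells with the hepatoblast covariate. Without 1 library, counts ran from 0 to 1 in Chd4-ECko LSECs (1 without control replicate 3), 0 to 1 for Chd4-ECko against Brg1-ECko LSECs, 0 to 2 in Brg1-ECko non-EC cells (0 without Brg1-ECko replicate 1) and 0 to 1 for the Chd4-ECko difference between fractions. The sign turned, none of these values having passed the DEG thresholds, for Plau in Brg1-ECko LSECs (-0.25 to 0.20 over fits without 1 library, 0.20 without Brg1-ECko replicate 1, and 0.32 with the hepatoblast covariate), Serpinf2 in Brg1-ECko LSECs (-0.00145, hepatoblast covariate), Plaur in Chd4-ECko non-EC cells (-0.38 to 0.039 over fits without 1 library, 0.039 without control replicate 3) and in Brg1/Chd4-ECdko non-EC cells (-0.048 to 0.37, -0.048 without control replicate 2). The hepatoblast covariate also turned, in non-EC cells, Plg (-0.16 in Chd4-ECko, -0.18 in Brg1-ECko), Plgrkt (0.029 and 0.17) and Plaur (-0.30 in Brg1-ECko, -0.15 in Brg1/Chd4-ECdko). The cause was not tested. Over the fits without 1 library, 395 values kept direction and DEG call, 12 lost a DEG call, 4 gained one and 3 changed sign. These counts and the sign changes listed above cover only the gene and comparison pairs followed here, not all 8 genes in every comparison. Quantile normalization moved the median of all genes by -0.16 in Brg1/Chd4-ECdko against control LSECs, by -0.13 against Chd4-ECko LSECs and by -0.14 between fractions over the 4 genotypes. Groups of 3 libraries without known depth limit what small differences in low genes such as Serpinb2 can show.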

Other observations

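Beyond the 8 genes, the surroundings in which plasmin acts were also divided between the fractions. Of 40 other pathway genes tested in control livers, 14 were higher and 15 lower in LSEC than in non-EC libraries as DEGs by limma, beside 19.4% and 13.3% of all genes. Among 7 basement membrane genes 6 were higher, led by the laminin chain genes Lama4 (4.07 on the log2 scale) and Lamb1 (3.99) and by Nid1 (3.08). The genes of the annexin A2 complex, which binds plasminogen at cell surfaces, were also higher: Anxa2 averaged 350 TPM in LSEC and 34.5 TPM in non-EC libraries, and S100a10 480.0 and 85.4 TPM. Mrc2, whose product associates with the urokinase receptor, was higher by 3.86, and the integrin genes Itga3, Itga5 and Itgav by 2.11, 1.32 and 1.08. Lower in LSEC libraries were all 4 listed genes of contact activation, 6 of 7 fibrin genes, Vtn (-1.90), Itgb3 (-2.25) and the plasma protease inhibitor genes A2m (-1.62) and Pzp (-2.07), while Thbd, the thrombomodulin gene, was higher by 2.26. Mesenchymal and mesothelial markers moved with the higher group, and hepatoblast (7 of 8), megakaryocyte (6 of 6), erythroid (6 of 6) and granulocyte markers (4 of 6) were called lower with the lower group, and their part was not tested.

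Between fractions, the Chd4-ECko difference of F13a1 was larger in LSECs by 2.22 (limma adjusted p = 0.0298), and for Anxa2 the Brg1-ECko difference in LSECs minus that in non-EC cells was -1.23 (limma adjusted p = 0.0426). In the first of these tests all 11 myeloid markers were also positive (median 0.82), and in the second 7 of 8 endothelial markers (median -0.65, 1 DEG) and all 8 stellate and mesenchymal markers (median -0.51) were negative, and their part was not tested.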
